A study of Homo sapiens with 84 samples.

Results

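The BH3-only genes encode the proteins that start the mitochondrial pathway of apoptosis, and their open chromatin was followed here in 9 triple-negative breast cancer cell lines treated with an EZH2 inhibitor, an AKT inhibitor or both. The set was 8 genes: BMF, BCL2L11 (BIM), BBC3 (PUMA), PMAIP1 (NOXA), HRK, BAD, BID and BIK. For each gene the counts of all peaks assigned to its symbol within 10 kb of the transcription start site (TSS) were summed, and the single peaks were read beside the sums. By that rule 7 of the 8 genes had peaks, 51 in all, out of 24455 genes and 861439 peaks in the whole table. No peak carried the symbol BCL2L11. The 25 peaks that lie over that gene were assigned to MIR4435-2HG (24 peaks) and ACOXL (1 peak), whose starts are at least 387650 bp away, so BCL2L11 was taken by position from the 9 peaks within 10 kb of its RefSeq start, a choice made after the files were seen.

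The assay was ATAC-seq, where Tn5 transposase inserts adapters into open DNA, and the 78 libraries form 26 groups of 3. The solvent DMSO, tazemetostat at 5 uM, ipatasertib at 5 uM and the combination of both agents at those doses were all given to SUM-159PT, SUM-149PT, MDA-MB-468 and MDA-MB-231. Only DMSO and the combination were given to HCC1937, HCC1395, HCC1143, BT-549 and BT-20. Tazemetostat inhibits EZH2, the methyltransferase of the Polycomb complex PRC2, and was given from day -5 (the schedule is described for MDA-MB-468). Ipatasertib inhibits the AKT kinases and was given from day 0 in medium with 2% serum, and cells were collected at 24 hours. Nuclei came from 50000 cells per library, taken from suspensions selected for high viability, so cells already dead at that time are largely left out. All are established lines grown in culture, and a group is 1 line, not a set of tumours. The 6 samples of another line, HCC1806, were not analysed here.

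BH3-only proteins carry a single BCL2 homology domain, the BH3 helix, which fits a groove on the other members of the BCL2 family. BIM, PUMA and BID can bind both the anti-apoptotic guardians (BCL2, BCL-XL, MCL1) and the pore-forming effectors BAX and BAK, whereas NOXA, BMF, HRK, BAD and BIK act mainly by occupying guardians. Many are controlled at the level of transcription: PUMA and NOXA are induced by cell stress, BIM is a FOXO target in cells with low AKT activity, and BAD is held inactive by AKT phosphorylation. The DMSO levels and the treatment responses below are of accessibility, which is not the same as expression.

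**Figure D1:**
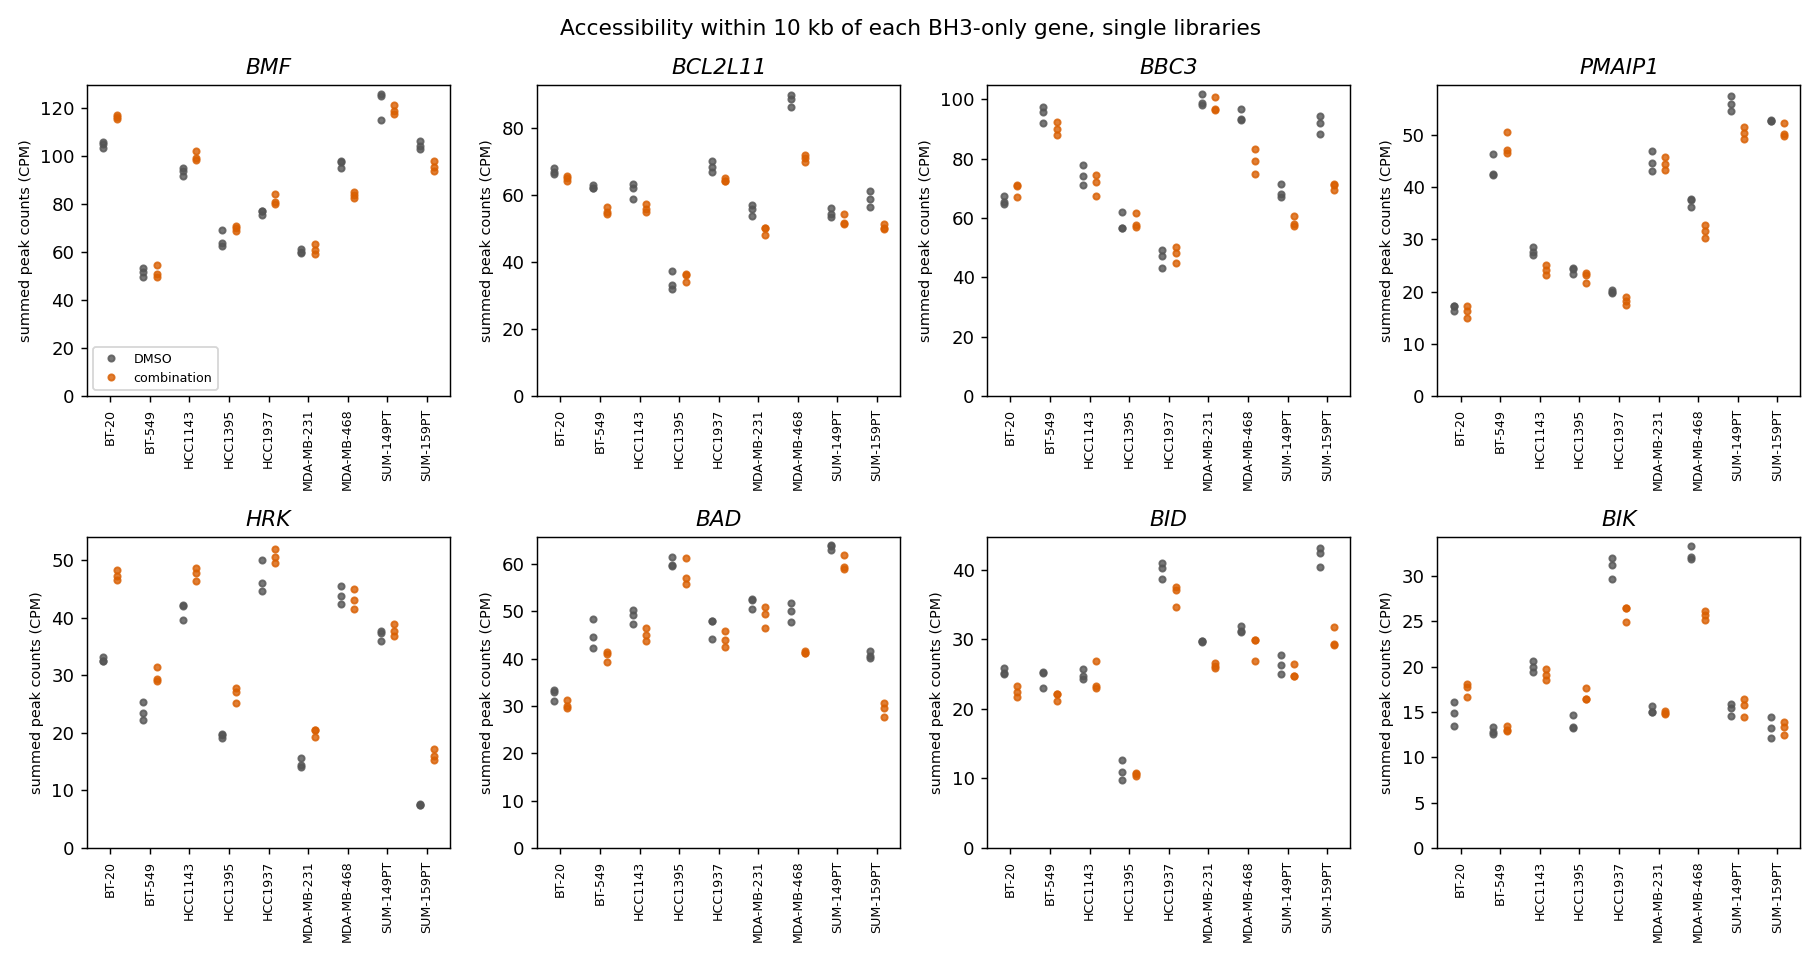
Summed peak counts within 10 kb of each gene in CPM (a library's counts scaled to its total in peaks, vertical axis from 0) by cell line; each point is 1 library, grey for DMSO and orange for the combination. HRK shows the widest range between lines in DMSO, 7.50 to 47.0 CPM, and its orange points lie above the grey ones without overlap in 6 lines.

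The promoter sequences of 3 members from RefSeq (GRCh38.p14, the hg38 assembly of the files) are given here as the 250 bases before the start site. They run 5′ to 3′ on the gene's strand, with each CpG dinucleotide in capitals. The peaks over these bases were not called over 9 lines with the combination (edgeR, adjusted p of 0.118 for HRK, 0.194 for BMF and 0.38 for BCL2L11). The peaks that were called lie outside the printed bases. HRK is shown because its chromatin opened with treatment, BMF because its promoter peak was called lower in some lines and its upstream peaks higher in others, and BCL2L11 because it is the member without peaks by symbol. The HRK sequence is chr12:116881442-116881691 on the minus strand, in the peak chr12:116880648-116881686 apart from its first 5 bases. The BMF sequence is chr15:40108880-40109129 on the minus strand, in the peak chr15:40107993-40109647. The BCL2L11 sequence is chr2:111120664-111120913 on the plus strand, in the peak chr2:111120189-111121634.
HRK: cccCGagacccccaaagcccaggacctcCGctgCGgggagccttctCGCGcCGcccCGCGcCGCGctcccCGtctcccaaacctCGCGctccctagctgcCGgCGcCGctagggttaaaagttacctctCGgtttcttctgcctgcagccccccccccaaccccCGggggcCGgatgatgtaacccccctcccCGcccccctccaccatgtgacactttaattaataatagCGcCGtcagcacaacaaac
BMF: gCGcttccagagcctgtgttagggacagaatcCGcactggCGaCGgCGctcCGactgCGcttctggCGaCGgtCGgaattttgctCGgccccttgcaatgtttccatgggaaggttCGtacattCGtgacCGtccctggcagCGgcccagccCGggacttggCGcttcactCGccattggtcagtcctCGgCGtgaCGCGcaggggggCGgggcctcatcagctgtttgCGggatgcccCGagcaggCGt
BCL2L11: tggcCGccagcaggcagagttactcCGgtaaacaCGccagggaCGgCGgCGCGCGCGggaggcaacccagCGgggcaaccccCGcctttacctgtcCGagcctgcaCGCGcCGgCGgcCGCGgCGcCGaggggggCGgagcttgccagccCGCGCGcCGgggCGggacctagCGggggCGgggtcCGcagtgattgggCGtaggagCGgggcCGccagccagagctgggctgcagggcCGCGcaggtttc
The printed bases hold 22 CpGs in HRK, 26 in BMF and 34 in BCL2L11. In the full RefSeq window, which adds 50 bases after the start, the counts are 25, 31 and 39, against a median of 14 over 35116 promoters. The FOXO core motif GTAAACA, searched on both strands, occurs 1 time in the BCL2L11 window and in none of the 12 windows that the RefSeq table lists for BMF, BBC3, PMAIP1, HRK, BAD and BID. It occurs in 3.42% of all promoters. BMF has a second RefSeq start inside the gene (chr15, position 40106966) whose window holds 1 CpG.

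Libraries held 12292571 to 21459284 counts in peaks. Libraries of one group differed by less than the sampling noise of their counts in 76 of 78 pairs (ratio of observed to sampling variance, median 0.850). The other 2 pairs both involve replicate 3 of HCC1395 in DMSO, with ratios up to 1.66. The 3 libraries of a group were therefore summed to 1 value, and the cell line was taken as the replicate. No label says that the libraries came from separate cultures, and tests within a line, which use single libraries, cover little more than counting error. Among the markers checked, ESR1 and PGR were low in DMSO, with medians of 0.574 and 0.725 CPM per kb of peak. These lie at percentiles 11.5 and 17.1 of all genes. ERBB2 was not low, with a median of 6.55 CPM per kb at percentile 68.7. The leukocyte gene CD3E had 1.58 (percentile 34.7). The endothelial genes PECAM1 and CDH5 had 2.04 and 3.38 (percentiles 39.8 and 50.01). The epithelial, basal and mesenchymal markers lay between percentiles 20.2 (TP63) and 90.4 (VIM). In bulk libraries a site open in fewer cells and a site less open in every cell cannot be told apart.

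In DMSO the guardians' partner BMF and the BCL-XL partner BAD had the highest accessibility per length. Per kb of peak, the median over lines was 13.02 CPM for BMF and 12.3 for BAD, at percentiles 94.1 and 92.5 of all genes. BBC3 followed at 10.7, BCL2L11 at 9.03, BID at 7.17, PMAIP1 at 6.89 and HRK at 5.63 CPM per kb, and BIK was last at 3.70, at percentile 51.9. The BAD promoter peak, chr11:64284113-64286752, also holds a RefSeq start of GPR137, and reads of the 2 genes cannot be separated there.

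Levels of a gene differed between lines, here as CPM summed over its peaks. HRK, a neuronal BH3-only protein that binds BCL-XL, ranged most, from 7.50 CPM in SUM-159PT over a median of 32.7 to 47.0 in HCC1937, a ratio of 6.27. For comparison, the median ratio of highest to lowest line was 2.76 over 17246 genes with at least 1 CPM in every line. BID, which is cut by caspase 8 to link the death receptors to mitochondria, ranged from 11.1 in HCC1395 over 26.4 to 41.9 in SUM-159PT, a ratio of 3.77. PMAIP1, whose product binds MCL1, ranged from 16.995 in BT-20 over 37.1 to 55.8 in SUM-149PT, a ratio of 3.28. The ratios of the other 5 genes were below the median of all genes.

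BCL2L11 ranged from 34.2 CPM in HCC1395 over 61.2 to 88.2 in MDA-MB-468, and BIK, an endoplasmic reticulum protein of the family, from 12.9 in BT-549 over 15.2 to 32.4 in MDA-MB-468. BMF, which is tethered to the cytoskeleton and released on loss of anchorage, ranged from 51.4 in BT-549 over 93.4 to 121 in SUM-149PT. BBC3 ranged from 46.8 in HCC1937 over 74.1 to 99.7 in MDA-MB-231, and BAD from 32.5 in BT-20 over 48.9 to 63.6 in SUM-149PT. The ranges of a line's libraries cover little more than counting error, and overlaps over all genes were not counted. By these ranges the order of lines was largely resolved for BMF, PMAIP1 and HRK, with overlapping libraries in 1 of 8 neighbouring pairs each. It was least resolved for BIK, where 6 of 8 neighbouring pairs overlapped and only MDA-MB-468, HCC1937 and HCC1143 stood above the other lines.

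Treatment with both agents raised accessibility at HRK and moved the other members little. Over 9 lines, tested on the summed counts with the line as a block (edgeR's quasi-likelihood test with Benjamini-Hochberg adjustment over 24293 genes), HRK rose by a log2 fold of 0.37 ± 0.10 (SE; adjusted p = 0.0199), a factor of 1.29. BCL2L11 fell by 0.09 ± 0.03 (SE; adjusted p = 0.0472), BAD by 0.12 ± 0.03 (adjusted p = 0.0257) and BID by 0.12 ± 0.03 (adjusted p = 0.0288). BMF (0.05 ± 0.03), BBC3 (-0.06 ± 0.04), PMAIP1 (-0.05 ± 0.04) and BIK (0.03 ± 0.06) did not pass the threshold of 0.05, with adjusted p of 0.239, 0.264, 0.38 and 0.762. Of all genes tested, 10.4% were called higher and 15.8% lower, beside 1 of 8 members higher and 3 of 8 lower. The median log2 fold was -0.05 over the members and -0.01 over all genes, and the median absolute fold was 0.07 against 0.13.

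The rise of HRK was called with the same sign under all 22 alternatives tried, with folds from 0.29 to 0.41. The lowest of these left out SUM-159PT. The 3 falls were less stable. The call for BCL2L11 was lost in 13 of 22 alternatives, among them the omission of any 1 line except HCC1395 (folds from -0.06 to -0.09). BAD lost its call without BT-20 (-0.11), BT-549 (-0.12) or HCC1143 (-0.11). BID lost it without BT-20 (-0.10), BT-549 (-0.12), HCC1937 (-0.12) or SUM-159PT (-0.08), and without replicate 3 of every group (-0.11). With offsets that follow a loess trend on abundance, none of the 3 falls was called, and BMF was called higher at 0.13. BMF was also called higher when MDA-MB-468 was left out (0.08).

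HRK was higher with the combination in 9 of 9 lines on the scaled counts, and its 3 libraries did not overlap with DMSO in 6 of them. That count of 6 does not set HRK apart. BCL2L11 had 7 such lines, all with lower CPM, and over all members 42 of 72 tests were without overlap. The share over all genes was not computed. Overlap was judged on CPM, in either direction. In some of the 42, CPM fell while the scaled fold was above 0, as for BMF in SUM-159PT (0.06) and BID in MDA-MB-468 (0.03). In SUM-159PT the DMSO libraries had 7.59, 7.399 and 7.50 CPM of HRK and the combination libraries 16.1, 15.2 and 17.1. All 3 treated libraries of SUM-159PT lay above all of its controls, with a log2 fold of 1.28 ± 0.08 (SE; adjusted p = 5.77e-31). In BT-20 the DMSO libraries had 32.5, 33.2 and 32.6 CPM and the combination libraries 48.4, 47.3 and 46.5, a log2 fold of 0.53 ± 0.04. In MDA-MB-231 they had 14.4, 14.1 and 15.6 against 20.5, 19.3 and 20.5, a log2 fold of 0.51 ± 0.06. These groups were separate in every library.

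The other lines responded less at HRK. HCC1395 (0.43), BT-549 (0.40) and HCC1143 (0.24) rose without overlap of libraries. HCC1937 (0.13) and MDA-MB-468 (0.13) were called higher although their libraries overlapped, and on total counts the sign in MDA-MB-468 turned (-0.02). SUM-149PT was not called (0.07), with 36.0, 37.5 and 37.7 CPM in DMSO against 38.9, 36.9 and 37.8. SUM-159PT, with the largest fold, was also the line with the lowest HRK level in DMSO. The DMSO libraries enter both of those values.

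**Figure D2:**
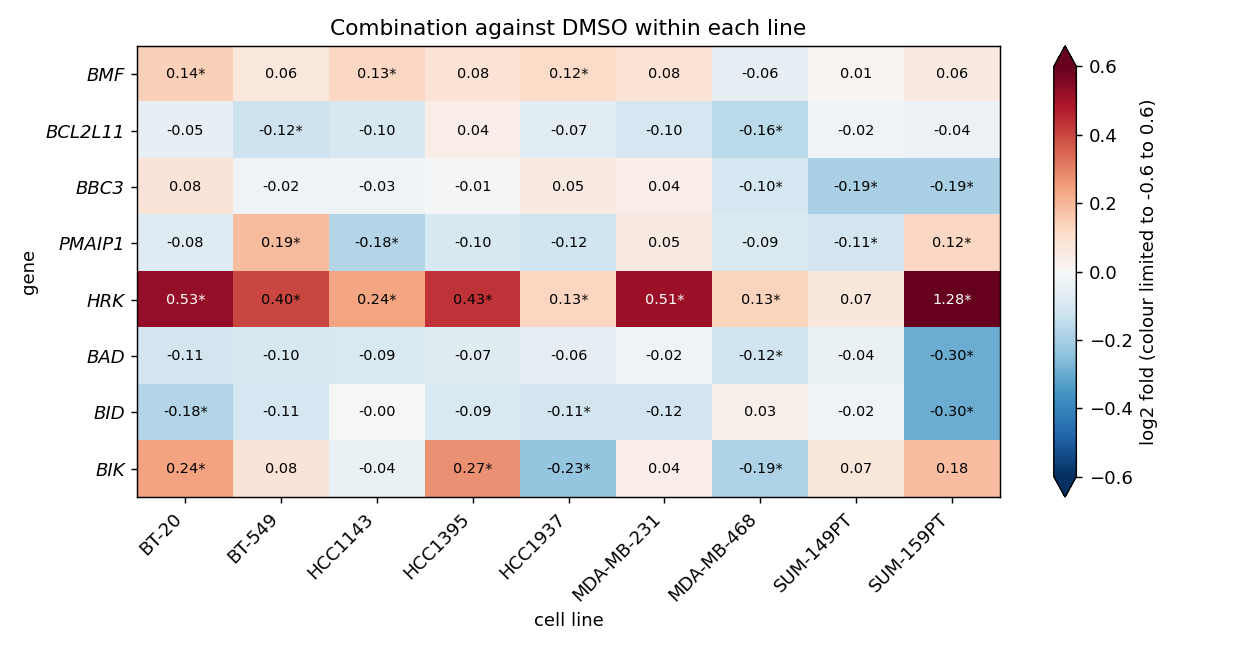
Log2 fold of the combination against DMSO for each gene (rows) in each line (columns), on TMM-scaled sums; red is higher, blue is lower, and an asterisk marks an adjusted p under 0.05 within the line. The HRK row is positive in all 9 columns and called in 8; no other row is called in 1 direction in more than 3 columns.

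Over all 8 genes and 9 lines, 15 of 72 tests with the combination were called higher (20.8%) and 14 lower (19.4%). Over all genes by line, 19.4% were called higher and 14.8% lower. HRK gave 8 of the 15 higher calls. Scaling matters here: on total counts the median log2 fold of all genes was -0.20 in SUM-159PT and -0.16 in MDA-MB-468 with the combination, and between -0.07 and 0.01 in the other lines. The folds given are scaled by TMM (trimmed mean of M-values), which sets this shift near 0, so they are relative to most genes, whereas CPM are not. Of the 72 folds, 9 changed sign between TMM, DESeq2 size factors and total counts. Of the called ones, HRK in MDA-MB-468 and PMAIP1 in SUM-159PT did. On total counts 14 of the 72 were called higher (19.4%) and 26 lower (36.1%), against 16.8% and 25.3% of all genes by line.

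Among the direct activators, BCL2L11 had lower folds in 8 of 9 lines and was called in MDA-MB-468 (-0.16) and BT-549 (-0.12). In MDA-MB-468 its DMSO libraries had 86.3, 90.0 and 88.7 CPM and the combination libraries 71.1, 72.0 and 70.0, with a gap between the groups. The highest fold was in HCC1395 (0.04, not called), where replicate 3 of DMSO (37.4 CPM) was above replicates 1 and 2 (31.9 and 33.1). BBC3 fell in SUM-159PT (-0.19), SUM-149PT (-0.19) and MDA-MB-468 (-0.10), and was called in no other line. In SUM-159PT it went from 92.1, 94.5 and 88.5 CPM to 71.6, 71.2 and 69.3. BID fell in SUM-159PT (-0.30), BT-20 (-0.18) and HCC1937 (-0.11). The SUM-159PT libraries had 42.4, 43.1 and 40.4 CPM of BID in DMSO and 29.2, 29.3 and 31.7 with the combination, which do not overlap. On total counts this BID fold was -0.48. The CPM of SUM-159PT and MDA-MB-468, here and below, include the shift of all genes on total counts (medians of -0.20 and -0.16).

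Among the members that bind guardians, BMF had scaled folds above 0 in 8 of 9 lines. On total counts the sign turned in SUM-149PT (-0.03) and SUM-159PT (-0.12). BMF was called higher in BT-20 (0.14), HCC1143 (0.13) and HCC1937 (0.12) and was called in no other line. In BT-20 the BMF sum went from 106, 105 and 104 CPM to 116, 117 and 115, and in MDA-MB-468, where the scaled fold was -0.06 (adjusted p = 0.0906), from 98.0, 97.6 and 95.1 to 82.6, 83.9 and 85.0. PMAIP1 moved both ways. It rose in BT-549 (0.19), fell in HCC1143 (-0.18) and SUM-149PT (-0.11), and was called higher in SUM-159PT (0.12), where the sign turned on total counts (-0.06).

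BAD had folds below 0 in 9 of 9 lines and was called in SUM-159PT (-0.30) and MDA-MB-468 (-0.12). In SUM-159PT the BAD sum went from 40.6, 41.7 and 40.3 CPM to 27.6, 29.6 and 30.7. BIK rose in HCC1395 (0.27) and BT-20 (0.24) and fell in HCC1937 (-0.23) and MDA-MB-468 (-0.19). In MDA-MB-468 it went from 31.9, 33.3 and 32.1 CPM to 25.1, 25.7 and 26.1, and in HCC1395 from 14.7, 13.3 and 13.4 to 17.7, 16.5 and 16.4.

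The response to the combination differed between lines for all 8 members in an F test of the line-by-treatment terms, fitted to single libraries (edgeR's quasi-likelihood test, adjusted p from 3.41e-29 for HRK to 0.000141 for BID). Of 23697 genes tested, 73.4% were called in the same test, and the members share this with most genes.

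Single agents were compared in the 4 lines that had them, with the line as a block over 24000 genes. Tazemetostat lowered 4 members. BCL2L11 fell by 0.17 ± 0.03 (SE; adjusted p = 0.00706), BBC3 by 0.16 ± 0.05 (adjusted p = 0.027), BAD by 0.19 ± 0.06 (adjusted p = 0.0281) and BID by 0.19 ± 0.06 (adjusted p = 0.0425), by edgeR's quasi-likelihood test. With tazemetostat 18.1% of genes were called lower and 9.69% higher. HRK had a fold of 0.38 ± 0.19 in this fit and was not called (adjusted p = 0.135), since its fold ranged from 0.05 in MDA-MB-468 to 1.11 in SUM-159PT. All 4 had folds below 0 in 4 of 4 lines, but the calls were lost with fewer lines. Without SUM-159PT none of the 4 was called (BCL2L11 -0.17, BBC3 -0.14, BAD -0.15, BID -0.12). Without MDA-MB-468 the calls for BBC3 (-0.14), BAD (-0.16) and BID (-0.18) were lost, without SUM-149PT that for BBC3 (-0.17), and without MDA-MB-231 that for BID (-0.19).

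Ipatasertib called 0 of 24000 genes across the 4 lines (0%), with 492 at an unadjusted p under 0.05 and 0 called by DESeq2. The members' folds lay between -0.04 (PMAIP1) and 0.07 (BID), and none had an unadjusted p under 0.05. With the combination in the same 4 lines, BCL2L11 was called lower (-0.11 ± 0.03; adjusted p = 0.0383 by edgeR), while 12.4% of genes were called lower and 7.2% higher. HRK had a fold of 0.42 ± 0.19 there and was not called (adjusted p = 0.118).

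The agents were also set against each other. The combination minus tazemetostat called 0 of 24000 genes by edgeR (0%; 893 at an unadjusted p under 0.05, 2 called by DESeq2). The largest member folds in it were 0.11 ± 0.07 for BIK and 0.06 ± 0.03 for BCL2L11. Within lines 1 of 32 member tests was called in it (3.12%), and the share of all genes by line was not computed. The call was BBC3 in MDA-MB-231, at 98.05 CPM with the combination and 87.7 with tazemetostat (0.14 ± 0.03; adjusted p = 0.00703 by edgeR). A response to the combination that was more or less than the sum of the single agents was called for 0 of 24000 genes (0%; 52 at an unadjusted p under 0.05, 0 called by DESeq2). For HRK the non-additive term was -0.01 ± 0.26 on the log2 scale, and this SE is of the same order as the HRK fold itself. The combination minus ipatasertib called BCL2L11 (-0.12), BAD (-0.20) and BID (-0.20) lower, among 15.9% of genes called lower and 8.63% higher. These contrasts share libraries, so their calls are not independent of each other.

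**Figure D3:**
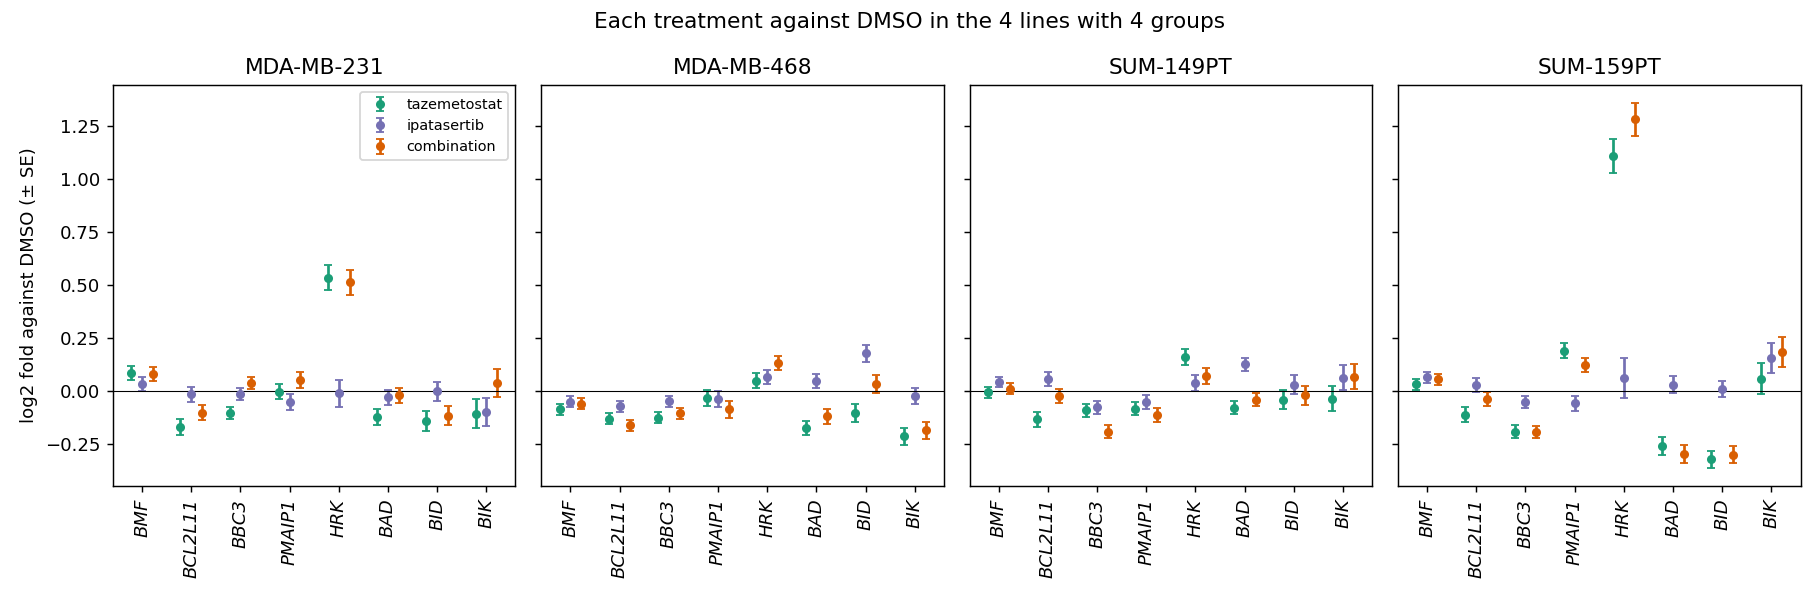
Log2 fold against DMSO (vertical axis, ± SE from edgeR within the line) of each gene in the 4 lines with single agents; green is tazemetostat, violet ipatasertib and orange the combination. The HRK points of tazemetostat and the combination lie together at 0.54 and 0.51 in MDA-MB-231 and at 1.11 and 1.28 in SUM-159PT, with ipatasertib near 0.

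Within single lines, tazemetostat raised HRK in SUM-159PT (1.11 ± 0.08), MDA-MB-231 (0.54 ± 0.06) and SUM-149PT (0.16 ± 0.04). Its libraries in SUM-159PT had 14.4, 13.5 and 14.4 CPM of HRK, close to those of the combination and apart from the ipatasertib libraries, which had 7.84, 7.91 and 7.85. In MDA-MB-231 the HRK level was 19.3, 19.9 and 21.2 CPM with tazemetostat and 14.5, 14.7 and 14.2 with ipatasertib. In MDA-MB-468 HRK was not called with tazemetostat (0.05), and on total counts it was called lower (-0.13).

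Tazemetostat lowered BCL2L11 in 4 of 4 lines (folds from -0.17 to -0.11) and BBC3 in 4 of 4 (-0.19 to -0.09). It lowered BAD in 3 of 4, BID in SUM-159PT (-0.32), BIK in MDA-MB-468 (-0.21) and BMF in MDA-MB-468 (-0.09). PMAIP1 was called higher in SUM-159PT (0.19), where the sign turned on total counts (-0.0079). In all, 4 of 32 member tests were called higher (12.5%) and 14 lower (43.8%), against 22% and 17.2% of all genes by line. On total counts 3 were called higher (9.38%) and 22 lower (68.8%), against 16.9% and 40.1%. With ipatasertib 2 of 32 were called, BID higher in MDA-MB-468 (0.18 ± 0.04; 31.2, 31.0 and 31.9 CPM in DMSO, 36.2, 35.7 and 35.9 treated) and BAD higher in SUM-149PT (0.13 ± 0.03). Over all genes by line ipatasertib called 1.35% higher and 1.9% lower. The BCL2L11 sum had ipatasertib folds from -0.07 to 0.06 in the 4 lines and was called in none. Of 21 tests of its single peaks with ipatasertib, 0 were called higher and 2 lower (9.52%), against 2.87% and 1.94% of all peaks by line.

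Single peaks were then tested over the whole peak table. Peak folds are scaled to the bulk of peaks, whose median on total counts was 0.0059 in SUM-159PT, 0.04 in MDA-MB-468, 0.04 in MDA-MB-231 and 0.08 in BT-549, against -0.20, -0.16, -0.07 and -0.06 for the gene sums, so peak folds lie lower than gene folds in those lines. Over 9 lines, 60 member peaks were tested, and 2 were called higher and 4 lower by edgeR, against 5.39% and 3.27% of 736873 peaks. Both higher peaks lie upstream of HRK. The peak chr12:116882610-116883077, at -1636 bp from the start (negative is upstream), rose by 0.59 ± 0.15 (SE; adjusted p = 0.0173), and chr12:116882346-116882516, at -1075 bp, by 0.86 ± 0.18 (adjusted p = 0.00705). The HRK promoter peak itself had a fold of 0.26 ± 0.10 and was not called over lines (adjusted p = 0.118), although it was higher in 8 of 9 lines.

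At the HRK peak at -1636 bp, the combination was called higher in 7 lines and lower in MDA-MB-468. In HCC1143 its DMSO libraries had 3.58, 3.09 and 4.20 CPM and the combination libraries 6.36, 6.75 and 6.61. In MDA-MB-468 they had 1.43, 1.49 and 1.44 against 1.29, 0.860 and 0.824, lower in each library. The HRK promoter peak was called higher in BT-20 (0.35), HCC1143 (0.22), HCC1395 (0.55), MDA-MB-231 (0.50) and SUM-159PT (1.15), and lower in MDA-MB-468 (-0.18). In SUM-159PT it went from 1.86, 2.08 and 2.18 CPM to 5.08, 4.75 and 4.19. The largest rise of an HRK peak in a line was at 2135 bp inside the gene in SUM-159PT, from 0.575 to 2.61 CPM (log2 fold 2.13 ± 0.25). In MDA-MB-468 that inner peak rose (0.18 ± 0.06) while the promoter peak fell. Peak folds lie lower than gene folds in this line, where the HRK sum had a fold of 0.13. The sign of the promoter fall may therefore depend on the scaling.

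The 4 lower peaks belong to BCL2L11 and lie 6744 to 9493 bp inside the gene, with folds from -0.82 to -1.16. Their levels were low, with DMSO medians from 0.175 to 0.475 CPM, and few lines passed the filter for them. The clearest was at 8594 bp (chr2:111129508-111130301), where MDA-MB-468 went from 4.71 to 2.23 CPM (-1.12 ± 0.14) and HCC1937 from 1.28 to 0.3485 (-1.88 ± 0.32). The large BCL2L11 peak at 816 bp, in the annotated 5′ UTR class, was called lower in 6 lines, with folds from -0.36 in MDA-MB-468 to -0.22 in HCC1143, but not over lines (-0.20 ± 0.07; adjusted p = 0.0698). The promoter peak was called lower in 4 lines.

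BMF has 10 peaks within 10 kb, and none was called over lines. Its promoter peak was the largest, with DMSO levels between 20.3 and 29.7 CPM by line, and had a fold of -0.15 ± 0.07 over lines (adjusted p = 0.194). It is the only BMF peak within 1 kb, and fitted among gene sums within 1 kb it had a fold of -0.068, not called. Within lines it was called lower in SUM-159PT (-0.36), MDA-MB-468 (-0.34), MDA-MB-231 (-0.24) and BT-549 (-0.20). The SUM-159PT libraries of this peak had 27.4, 26.6 and 26.8 CPM in DMSO and 21.1, 21.1 and 22.01 with the combination. No line was called higher there.

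The upstream BMF peaks were called higher, in other lines than those called lower at the promoter. The lines called lower at the promoter are the ones named above where peak folds lie lower than gene folds. The split by line was not separated from that scaling. The peak at -9980 bp, chr15:40118433-40118872, rose in HCC1143 from 2.34, 1.06 and 1.70 CPM to 4.41, 5.39 and 5.30, a log2 fold of 1.49 ± 0.17 (SE; adjusted p = 9.93e-14). In SUM-149PT this peak had 7.30, 6.47 and 6.20 CPM in DMSO, 8.82, 8.51 and 9.72 with ipatasertib and 9.69, 8.51 and 9.004 with the combination. Both treated groups were called higher there (0.48 ± 0.09 with ipatasertib and 0.45 ± 0.08 with the combination), and tazemetostat was not (0.06; adjusted p = 0.711). The difference between the agents was not tested at this peak. In HCC1937 the same peak rose by 0.37, and over lines its fold was 0.34 ± 0.16 (adjusted p = 0.18).

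The BMF peak at -7465 bp (chr15:40115514-40116357) rose in HCC1143 (1.07), HCC1395 (0.58), HCC1937 (0.46) and BT-20 (0.34), and over lines it had a fold of 0.29 ± 0.12 (adjusted p = 0.133). The peak at -5104 bp was called in SUM-149PT (0.80). The upstream peaks at -8083 and -9474 bp had DMSO medians of 0.233 and 0.276 CPM and no call. Inside the gene, the peak at 9549 bp rose in 4 lines (0.22 to 0.31) and fell in SUM-159PT (-0.14), and that at 4834 bp rose in BT-20 (0.25) and HCC1395 (0.20) and fell in MDA-MB-468 (-0.26) and SUM-149PT (-0.20). The peak at 1686 bp, which holds the inner BMF start, rose in BT-549 (0.60) and MDA-MB-231 (0.57) and fell in MDA-MB-468 (-0.24). The peak at 3655 bp fell in MDA-MB-468 (-0.53) and BT-549 (-0.29). MDA-MB-468 thus had 4 called BMF peaks, all lower. Peak folds lie lower than gene folds in that line, where the BMF sum was not called (-0.06).

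**Figure D4:**
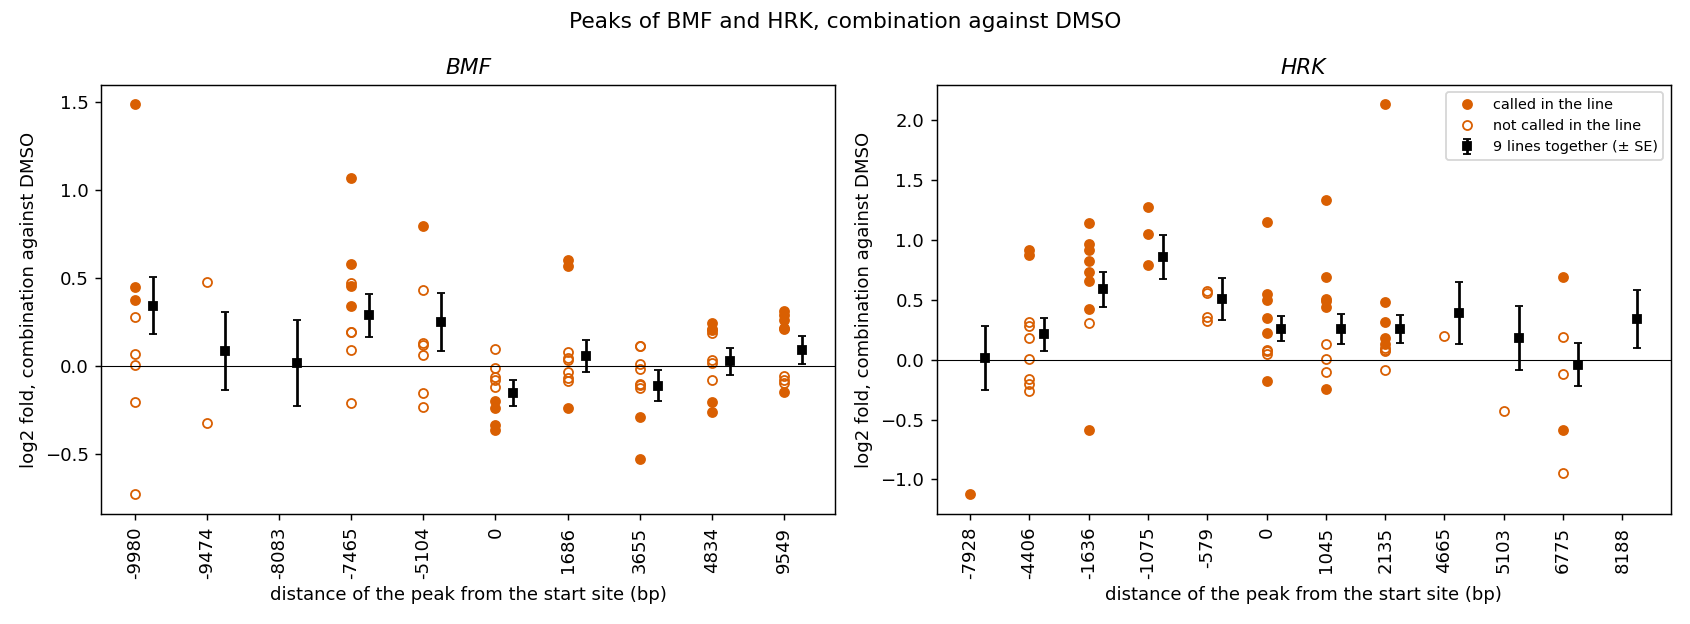
Log2 fold of the combination against DMSO (vertical axis) for each peak of BMF (left) and HRK (right), ordered by distance from the start site in bp; orange points are single lines, filled where called, and black squares are the fit over 9 lines ± SE. The BMF promoter peak at 0 bp has its 4 called points below 0, while the called points of the 3 upstream peaks at -5104, -7465 and -9980 bp are above 0.

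For BAD and BID most calls within lines were at the promoter. The BAD promoter peak had a fold of -0.18 ± 0.07 over lines (adjusted p = 0.0913) and was called lower in 6 lines. It is the only BAD peak within 1 kb, and fitted among gene sums within 1 kb it had a fold of -0.097 over lines and was called lower. Both its size and its call thus depend on the fit. The 2 fits differ in scaling, in the estimate of spread and in the number of tests adjusted for, and these were not separated. The BID promoter peak (chr22:17772118-17774843) had -0.18 ± 0.07 (adjusted p = 0.0941) and was called lower in 5. The PMAIP1 promoter peak (chr18:59899076-59901135) had -0.12 ± 0.07 (adjusted p = 0.288) and was called lower in 4. The BIK promoter peak (chr22:43110060-43111724) was called higher in 2 lines and lower in 2. The largest BBC3 peak lies 3589 bp inside the gene (chr19:47227070-47229177), with DMSO levels from 15.1 to 42.1 CPM. It was called lower in 4 lines and higher in 1, the BBC3 peak at 5853 bp lower in 5, and the smaller peak at the BBC3 start lower in 4. Over all members and lines, 54 of 346 peak tests with the combination were called higher (15.6%) and 89 lower (25.7%), against 18.2% and 16.2% of all peaks by line. The shares of all peaks include those far from any start, and shares matched for distance were not computed.

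By agent, tazemetostat called 11 of 157 member peak tests higher (7.01%) and 64 lower (40.8%), against 21.8% and 19.6% of all peaks by line. BBC3 accounted for 17 of the lower calls and BMF for 13. Ipatasertib called 6 of 157 higher (3.82%) and 4 lower (2.55%), against 2.87% and 1.94%. Member peaks all lie within 10 kb of a start, whereas the shares of all peaks also cover distant ones. No share matched for distance was computed for either agent or for the peaks tested over lines. The members were chosen with results of these data known, and these shares are descriptions.

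The rest of the apoptosis pathway was read from 6 lists, of 39 genes with 38 measured. Over 9 lines with the combination, 15 of the 38 were called lower and 1 higher by edgeR, against 15.8% and 10.4% of all genes. None of 6 guardians was called (median log2 fold -0.02). Of 3 effectors, BAX, which forms the mitochondrial pore, fell (-0.17 ± 0.04), and the list's median was -0.08. Of 9 genes of the mitochondrial and caspase arm 5 fell (median -0.11), led by CYCS, the cytochrome c gene (-0.22 ± 0.05), BIRC3 (-0.18 ± 0.03) and XIAP (-0.15 ± 0.02), BIRC3 and XIAP being inhibitors of apoptosis. Of 6 genes of the death receptor arm 3 fell (median -0.15), namely the TRAIL receptor gene TNFRSF10B (-0.34 ± 0.09), CFLAR, an inhibitor of caspase 8 (-0.23 ± 0.04), and CASP8 itself (-0.20 ± 0.03).

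Of 9 transcription factors known to regulate BH3-only genes, 4 fell and 1 rose (median -0.05). DDIT3, the CHOP factor of the stress response, fell by 0.36 ± 0.11 and ATF4 by 0.20 ± 0.03. FOXO4 was the one that rose (0.13 ± 0.04, higher in 9 of 9 lines). Of 5 measured genes with BH3-like regions outside the core family, 2 fell, BECN1 (-0.17 ± 0.05) and BCL2L13 (-0.13 ± 0.03), with a list median of -0.12. With tazemetostat in 4 lines, 13 of the 38 were called lower and 0 higher, against 18.1% and 9.69% of all genes.

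The pattern of each member over the 26 groups was compared with that of all other tested genes on other chromosomes, by Pearson's r of log2 CPM, given as a description since the groups of a line share its baseline. HRK was most like RASEF (r = 0.95) and LINC02894 (0.94), BMF most like LINC02682 (0.94) and ABCA12 (0.92), and BCL2L11 most like HDHD5-AS1 (0.96) and VPS26C (0.90). BBC3 was most like SLC25A16 (0.95) and TIMM17B (0.94), BAD most like HGS (0.93) and OXLD1 (0.92), and PMAIP1 most like TNFRSF10A (0.91), a TRAIL receptor gene, and SLC11A1 (0.88). BID was most like ETS2 (0.90) and PRNP (0.85), and BIK most like LOC107986166 and LINC02753 (both 0.90). Between members the highest values were 0.69 for BIK with BCL2L11, 0.68 for BID with BCL2L11 and 0.65 for BIK with HRK, and the lowest was -0.50 for HRK with PMAIP1.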

How the data were processed

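ATAC-seq libraries were put into groups from their labels. The values deposited by the authors are raw whole-number counts of reads in each peak, beside a table that assigns every peak to a gene. The submitters' processing notes name hg38, MACS2 and featureCounts. For versions, the aligner, duplicate removal and any shift of read ends, the sources used here give nothing. Counts were not corrected for DNA copy number.

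A gene's value is the summed count of its peaks up to 10 kb from the TSS; 61 peaks without a symbol were left out. For fits over lines the 3 libraries of a group were summed and the line was a block; within lines single libraries were used. Tests were edgeR 4.0.16 quasi-likelihood tests in R 4.3.3 (filterByExpr with a minimum count of 10, TMM scaling, robust fit), Benjamini-Hochberg adjusted over all genes or peaks at 0.05, and checked on simulated data. SE is the absolute log2 fold over the square root of F. CPM use a library's total count in peaks. Libraries held 12292571 to 21459284 counts, which sets the counting error. Alternatives were DESeq2 1.42.0, other scalings, filters and windows, and leaving out lines or libraries. BIK has no sequence here because RefSeq's promoter table does not list it.

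Named are the 8 members, for each the peak nearest the TSS and the largest, all BMF peaks, peaks called over lines, up to 3 called genes of each list (1 is not reported here), and 2 genes of like pattern; HRK and BCL2L11 peaks named beyond this were chosen after their values were seen. Members and lists were chosen with earlier results of these data known. Replicate numbers did not pair the samples: correlations of deviations between libraries of the same number in a line were -0.18 to 0.13 (median 0.0053).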

Additional observations from a re-analysis of the deposited data

Results flagged for a closer look

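In 16 sets of 9 lines tested for a line that stands apart (the DMSO levels and the combination folds of the 8 genes), 2 were marked, and chance marks about 1 in 20 such sets. The HRK fold in SUM-159PT was 1.28 on the log2 scale, far above the other lines. The BAD fold in SUM-159PT was -0.30, far below the others.

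The combination response differed between the 9 lines for every member by the F test of line by treatment (edgeR, adjusted p): HRK 3.41e-29, BBC3 1.09e-12, BIK 6.64e-12, BMF 1.66e-09, PMAIP1 6.17e-08, BAD 1.15e-05, BCL2L11 2.53e-05 and BID 0.000141. Single libraries enter this test, and 73.4% of all genes passed it.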

How the results depend on the processing

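Over 9 lines 4 members were called. This became 2 with abundance-trended offsets, and 1 without BT-20, 1 without BT-549, and 2 without HCC1143, HCC1937 or SUM-159PT. Sums without 1 replicate number gave 3. In the 4 lines, 5 member calls over the 3 contrasts with DMSO became 10 on total counts, 3 with peaks within 1 kb, 1 without MDA-MB-468, 3 without SUM-149PT, 0 without SUM-159PT and 3 with BCL2L11 left out. Within lines, 29 calls with the combination became 18 with DESeq2 and 18 within 1 kb (22 to 26 without 1 replicate), and 20 calls with single agents became 13 and 8 (12 to 16). The 143 member peak calls became 92 to 111 without 1 replicate. With the replicate block these counts were 29, 20 and 145, and 8 members still differed between lines. The highest line in DMSO was the same for 5 of 8 members within 1 kb and for 7 on TMM-scaled CPM. The causes were not tested.

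Signs turned over 9 lines for BMF within 1 kb (-0.068), BBC3 with abundance-trended offsets (0.013), PMAIP1 with those offsets (0.0016) and within 50 kb (0.030), and BIK on total counts (-0.014), within 50 kb (-0.060) and without HCC1395 (-0.0044). With tazemetostat they turned for BMF without MDA-MB-468 (0.023) and for PMAIP1 within 50 kb (0.044), without MDA-MB-468 (0.022) and without SUM-149PT (0.024). None of these was called in the main fit. The omission of BCL2L11 was chosen after seeing the data. By an exact sign-flip test over lines (smallest p 0.0039), HRK and BAD had p = 0.0039 and BMF, BCL2L11 and BID p = 0.0156, 0.0156 and 0.0195. At HRK in SUM-159PT, with 7.50 CPM, and at peaks below 1 CPM, depth limits the precision.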
